A study of Mus musculus with 18 samples.

Results

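White adipose tissue of C57BL/6J mice given low-dose quercetin was compared with the same tissue of mice given the vehicle. Quercetin is a plant flavonol. The comparison took all the libraries labelled as white adipose tissue, 6 of the 18 in the series, and the other 12 came from skeletal muscle and brown fat, with 6 from each. Vehicle mice (3 libraries) received 10% PEG400 in PBS, and quercetin mice (3 libraries) received 0.125 mg/kg quercetin in 100 µL of the same vehicle by oral gavage, so that both groups carried the solvent and the gavage. The mice were wild type, on normal chow, and the series describes the treatment as long-term and low-dose. The labels give a start at 14 months of age and male sex for the lifespan study only, and the sources used here do not give the age, sex, treatment time and white fat depot for the mice behind the libraries. No label says that libraries came from separate animals or that equal numbers pair animals, so a p-value here describes the spread among these libraries, which may be technical.

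White fat stores energy as triglyceride in adipocytes. In lipogenesis, citrate leaves the mitochondrion, is split to cytosolic acetyl-CoA and is built into fatty acids, and transcription of the enzymes is driven by insulin through SREBP-1c and by glucose through ChREBP. Lipolysis releases the fatty acids again on adrenergic stimulation and is restrained by insulin and by receptors that lower cyclic AMP. The tissue also holds fibroblasts, endothelial cells, macrophages and, where a lymph node lies inside the depot, many lymphocytes.

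The 6 libraries differed from each other in ways that the treatment groups did not follow. Counts summed over genes were 8612506 to 10283073 per library. Vehicle 1 and quercetin 2 were sequenced on flow cell H7GKJDSXX and the other 4 on H7H2WDSXX. Pearson's r of log2 CPM (counts divided by the TMM-scaled library size and given per 1e6) across genes was 0.901 between vehicle 1 and quercetin 2, and only 0.6 to 0.784 between vehicle 1 and the other 4 libraries. Genes are not independent replicates, so r is a description. Summed CPM of 25 adipocyte markers was 108444, 1617 and 21199 in vehicle 1 to 3 and 16272, 62325 and 42223 in quercetin 1 to 3. No adipocyte marker was at 0 in any library, but neither was any endothelial, macrophage or fibroblast marker, so this does not identify the tissue. Vehicle 2 was far below the others in adipocyte markers: the adipocyte hormone gene Adipoq was at 22.6 CPM there and at 419 to 1494 CPM in the other 5. Vehicle 2 also had the most muscle RNA, with a summed CPM of 2353 for 22 skeletal muscle markers against 153 to 217 in the others. Summed CPM of 14 T cell markers was 17.0 in vehicle 1 and 20.1 in quercetin 2, against 1125 to 1562 in the other 4. In bulk tissue, fewer cells of a type and less RNA per cell cannot be told apart.

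**Figure D1:**
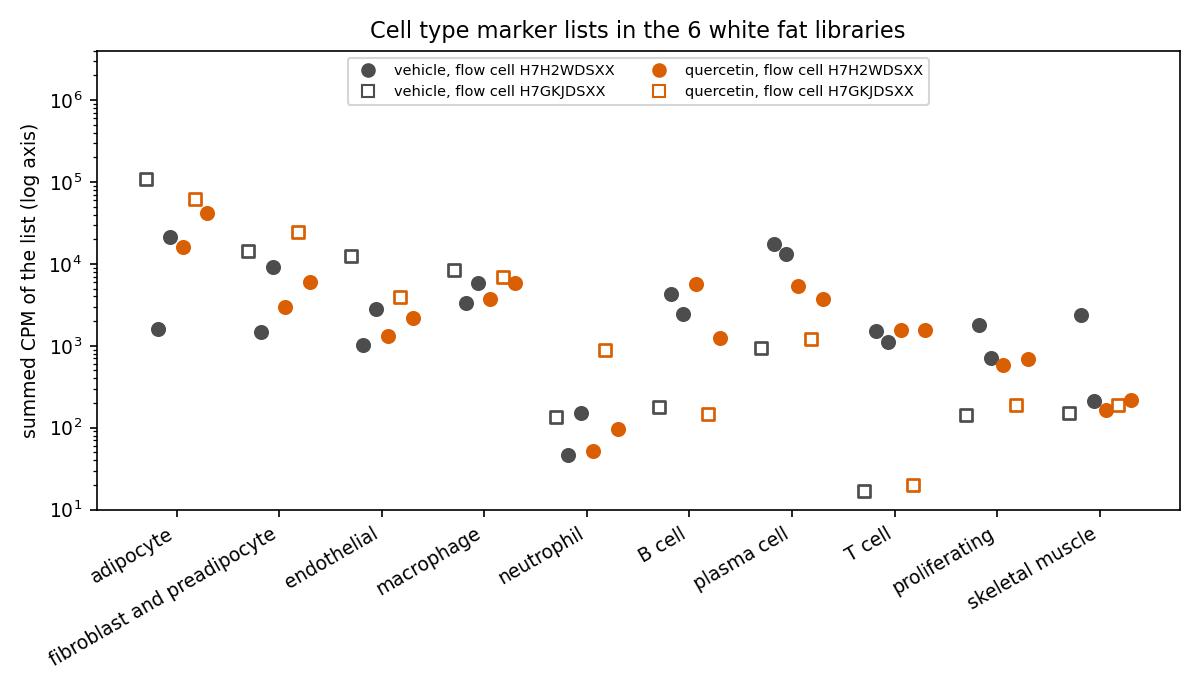
Summed CPM of 10 cell type marker lists (log axis) in the 6 white fat libraries; each point is 1 library, grey for vehicle and orange for quercetin, with open squares for flow cell H7GKJDSXX and filled circles for H7H2WDSXX. Vehicle 2 is the lowest point for adipocyte markers (1617) and the highest for skeletal muscle markers (2353), and the open squares are lowest for T cell markers (17.0 and 20.1).

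No gene passed an adjusted p of 0.05 in edgeR's quasi-likelihood test of quercetin against vehicle, over 14919 genes tested (0.0%), and the smallest adjusted p was 1.0. At an unadjusted p under 0.05, 73 genes (0.489%) were higher and 49 (0.328%) lower with quercetin. All 3 quercetin libraries lay above all 3 vehicle libraries for 352 genes (2.36%) and below them for 335 genes (2.25%), so that 4.6% of genes had groups without overlap. DESeq2 called 6 genes at an adjusted p of 0.05, all of them higher with quercetin, of 28118 with an adjusted p (0.0213%). These were Slc25a35, Thrsp, Pnpla3 and Angptl8 (DESeq2 adjusted p = 0.00238 for each), Ptger3 (0.00285) and A830018L16Rik (0.00941). At an unadjusted p under 0.05, DESeq2 counted 195 genes as higher and 215 as lower. With 3 libraries against 3, the exact permutation test has a smallest possible p of 0.1 for any one gene. Groups without overlap give that p, and the 4.6% of genes without overlap is below a share of 0.1.

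Genes of fat synthesis were among those with the smallest p, and those were higher with quercetin. Thrsp, which encodes the lipogenic protein Spot 14, stood at 69.5, 50.8 and 65.3 CPM in vehicle 1 to 3 and at 587, 235 and 1086 CPM in quercetin 1 to 3. Its lowest quercetin library was thus above its highest vehicle library, and the fitted log2 fold change was 3.36 ± 0.63 (SE, n = 3 per group; edgeR unadjusted p = 0.00164, adjusted p = 1.0). Pnpla3, a lipid droplet protein whose gene is known to be induced with lipogenesis, stood at 4.84, 4.64 and 19.7 CPM with vehicle and at 77.2, 145 and 259 CPM with quercetin. The groups did not overlap here either, and the log2 fold change was 4.04 ± 0.82 (edgeR unadjusted p = 0.00241). Leaving out any 1 library gave 2.73 to 3.75 for Thrsp and 3.51 to 5.08 for Pnpla3.

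Enzymes that supply acetyl-CoA were higher as well. Acss2, which makes cytosolic acetyl-CoA from acetate, was at 32.4, 20.8 and 26.5 CPM with vehicle and at 83.3, 50.4 and 129 CPM with quercetin, a log2 fold change of 1.72 ± 0.41 (edgeR unadjusted p = 0.00551). Acly, which splits citrate, was at 161, 172 and 186 CPM with vehicle and at 325, 304 and 489 CPM with quercetin. Its log2 fold change was 1.11 ± 0.32 (edgeR unadjusted p = 0.0136), and its groups, like those of Acss2, did not overlap. Slc25a1, the carrier that exports citrate from the mitochondrion, was at 200.1, 65.4 and 110.1 CPM against 311, 238 and 514 CPM (log2 fold change 1.5 ± 0.54, edgeR unadjusted p = 0.0302). Me1, the malic enzyme that supplies NADPH and was named after its values were seen, was at 208, 73.2 and 110.3 CPM against 348, 248 and 738 CPM (1.77 ± 0.60, edgeR unadjusted p = 0.0251). Both were highest in quercetin 3 and had no overlap between groups.

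Further along the pathway the groups overlapped. Fasn, fatty acid synthase, was at 1456, 263 and 612 CPM with vehicle and at 1754, 1361 and 4555 CPM with quercetin, with a log2 fold change of 1.72 ± 0.85 (edgeR unadjusted p = 0.0877). Its quercetin 2 library lay below vehicle 1. The elongase gene Elovl6 was at 5.45, 32.9 and 21.6 CPM against 78.7, 31.3 and 158 CPM, so quercetin 2 again fell inside the vehicle range (2.16 ± 0.83, edgeR unadjusted p = 0.0394). Acaca, the acetyl-CoA carboxylase that commits carbon to fatty acids, was at 840.3, 64.2 and 148 CPM against 298, 366 and 637 CPM (0.31 ± 0.96). Scd1, the stearoyl-CoA desaturase, ranged from 1115 to 25030.1 CPM with vehicle and from 4100.2 to 12475 CPM with quercetin (-0.10 ± 1.31). Dgat2, which makes triglyceride, ranged from 9.71 to 301 CPM and from 267 to 894 CPM in the same order (2.14 ± 1.23). For Scd1 and Dgat2 the vehicle range spanned a larger ratio than the difference between the groups.

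**Figure D2:**
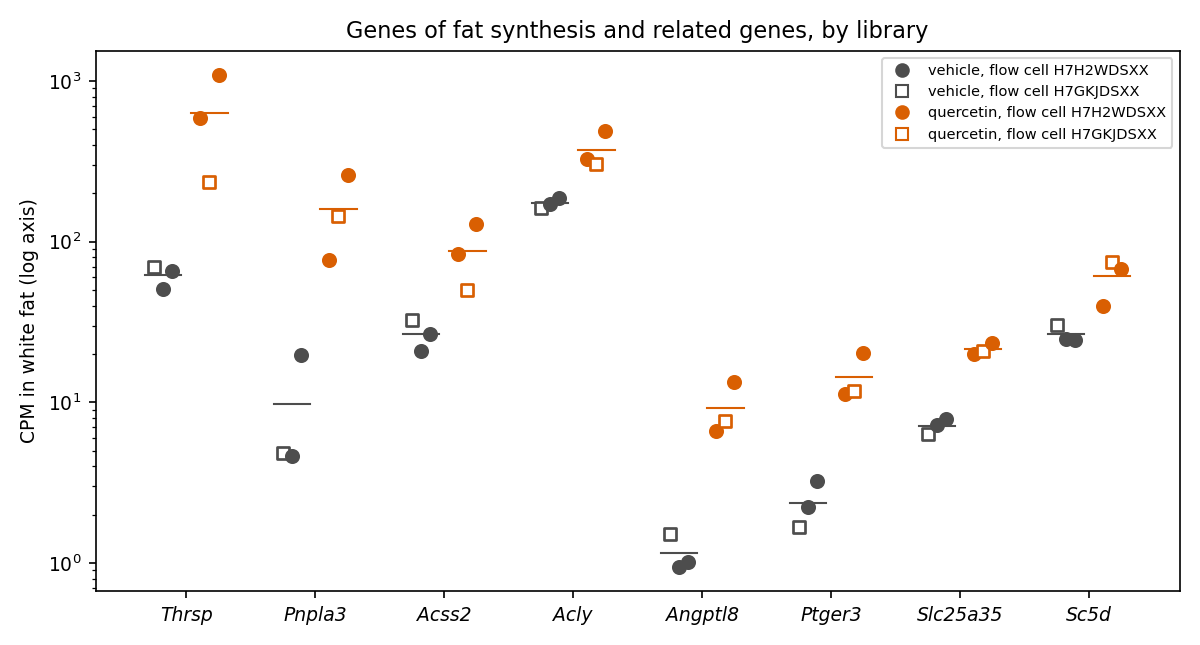
CPM (log axis) of 8 genes in each white fat library; grey is vehicle, orange is quercetin, open squares are flow cell H7GKJDSXX, filled circles H7H2WDSXX, and lines are means of 3 libraries. All 3 quercetin points lie above all 3 vehicle points for each of the 8 genes, as for Thrsp with 235 to 1086 against 50.8 to 69.5.

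Of 25 tested genes of fatty acid and triglyceride synthesis, none passed edgeR's adjusted p, 16 had a higher estimate with quercetin (48.5% of all genes tested did) and the median log2 fold change was 0.31, against -0.01 over all genes tested. Of the 25, 7 were higher at an unadjusted p under 0.05 (0.489% of all genes tested) and none lower, and 6 had non-overlapping groups, all higher (2.36% of all genes tested). The list median was 2.01 without vehicle 1 and -0.06 without vehicle 3, so it depended on the vehicle library left out. The list was compiled with earlier results of these data known and gives no independent evidence of a direction.

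Of the genes outside the synthetic enzymes, Angptl8, Ptger3 and Gys2 also had groups without overlap. Angptl8 encodes a secreted protein that is induced by feeding and bears on lipoprotein lipase activity. It was at 1.51, 0.949 and 1.01 CPM with vehicle and at 6.64, 7.63 and 13.4 CPM with quercetin (log2 fold change 2.99 ± 0.52, edgeR unadjusted p = 0.00114). Ptger3 encodes the prostaglandin E receptor EP3, which lowers cyclic AMP and restrains lipolysis. It was at 1.67, 2.22 and 3.23 CPM against 11.2, 11.8 and 20.3 CPM (2.60 ± 0.48, edgeR unadjusted p = 0.00158). Both genes were low in every vehicle library and several-fold higher in every quercetin library, although Angptl8 was among the weakly expressed genes. Gys2, a glycogen synthase, was at 4.84, 1.16 and 4.24 CPM against 11.6, 11.9 and 37.3 CPM (2.57 ± 0.77, edgeR unadjusted p = 0.015).

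Slc25a35, a mitochondrial carrier, varied little within groups, with 6.36, 7.28 and 7.87 CPM for vehicle and 20.1, 21.0 and 23.4 CPM for quercetin. The difference of 1.58 ± 0.30 (log2; edgeR unadjusted p = 0.00181) was 1.49 within flow cell H7H2WDSXX and 1.65 between the pair on H7GKJDSXX. Slc25a10, the dicarboxylate carrier, was at 100.2, 33.0 and 93.0 CPM against 142, 307 and 293 CPM (1.71 ± 0.54, edgeR unadjusted p = 0.0191). Of 20 carriers tested, 10 had a higher and 10 a lower estimate, and their median log2 fold change was -0.01, or 0.58 without vehicle 1. Exons of Slc25a35, Acss2, Pnpla3, Me1, Elovl6 and Slc25a10 overlap exons of other annotated genes, and no source used here gives the strand setting of the counts, so reads of those partners may not be told apart from theirs. A830018L16Rik was at 0.303, 0.316 and 0.505 CPM with vehicle and at 2.45, 5.95 and 5.94 CPM with quercetin (3.61 ± 0.62, edgeR unadjusted p = 0.00105).

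Thrsp lies on chromosome 7 at 97412938 to 97417730 (minus strand), Pnpla3 on chromosome 15 at 84167837 to 84187236, Angptl8 on chromosome 9 at 21835510 to 21837347 and Ptger3 on chromosome 3 at 157566892 to 157645888 (the last 3 on the plus strand; GRCm38). Bases upstream of a start were taken from RefSeq (GRCm38.p6), which held 7 of 9 genes looked up; 5 of those windows of 250 bases held no exon in the annotation, and those 5 are shown because these genes separated the groups. Capitals mark matches, on either strand, to the GC box (GGGCGG, the letters read by Sp1-like factors), the E-box (CACGTG, the letters read by factors such as USF) and the inverted CCAAT box (GATTGG).
Pnpla3, chr15:84167566-84167815, plus strand: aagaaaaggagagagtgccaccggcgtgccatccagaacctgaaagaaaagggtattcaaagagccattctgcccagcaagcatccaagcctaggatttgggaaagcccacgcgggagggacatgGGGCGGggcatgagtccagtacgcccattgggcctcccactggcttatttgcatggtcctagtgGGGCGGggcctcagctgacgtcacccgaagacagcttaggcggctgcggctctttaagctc
Angptl8, chr9:21835260-21835509, plus strand: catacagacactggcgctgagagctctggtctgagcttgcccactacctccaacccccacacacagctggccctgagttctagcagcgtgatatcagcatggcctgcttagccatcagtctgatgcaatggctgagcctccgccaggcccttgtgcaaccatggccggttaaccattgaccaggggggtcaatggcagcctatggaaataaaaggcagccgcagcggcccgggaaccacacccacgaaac
Ptger3, chr3:157566626-157566875, plus strand: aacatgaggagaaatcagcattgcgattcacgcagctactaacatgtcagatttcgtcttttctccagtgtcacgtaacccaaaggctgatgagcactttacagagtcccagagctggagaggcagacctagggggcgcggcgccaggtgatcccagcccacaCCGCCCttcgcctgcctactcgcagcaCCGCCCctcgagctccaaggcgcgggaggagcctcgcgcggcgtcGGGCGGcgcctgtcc
Acly, chr11:100528001-100528250, minus strand: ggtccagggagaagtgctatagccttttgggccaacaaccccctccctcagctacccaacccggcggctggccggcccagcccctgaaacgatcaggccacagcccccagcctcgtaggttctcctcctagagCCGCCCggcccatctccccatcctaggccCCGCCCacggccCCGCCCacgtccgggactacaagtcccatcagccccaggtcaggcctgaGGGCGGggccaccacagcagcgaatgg
Sc5d, chr9:42264301-42264550, minus strand: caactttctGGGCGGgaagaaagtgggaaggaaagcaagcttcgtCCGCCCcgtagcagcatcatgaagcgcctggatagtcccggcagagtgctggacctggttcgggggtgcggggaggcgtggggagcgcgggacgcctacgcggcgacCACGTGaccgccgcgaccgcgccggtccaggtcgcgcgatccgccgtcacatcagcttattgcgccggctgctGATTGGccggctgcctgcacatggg
The GC box was found 2 times upstream of Pnpla3, 3 times upstream of Ptger3, 4 times upstream of Acly and 2 times upstream of Sc5d, and 32.7% of 32851 promoter windows of this length held it. Sc5d also held the E-box (6.02% of windows) and the inverted CCAAT box (14.6%). None of the 3 motifs was in the window of Angptl8. Matches describe letters and do not show binding.

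The differences were then read within each flow cell, since vehicle 1 and quercetin 2 had been sequenced apart from the rest. For Thrsp the log2 fold change was 3.81 within H7H2WDSXX (2 libraries per group) and 1.75 between the single libraries on H7GKJDSXX, where no test was possible. Pnpla3 gave 3.76 and 4.77, Ptger3 2.5 and 2.51, Angptl8 3.30 and 2.01, and Acly 1.15 and 0.92, so these genes were higher in both flow cells. Acss2 gave 2.13 and 0.63, and Fasn gave 2.82 and -0.10, with no excess of quercetin 2 over vehicle 1. Over the 25 genes of fat synthesis the median was 2.07 within H7H2WDSXX, with 21 higher, and -0.06 on H7GKJDSXX, with 12 higher and 13 lower. The 25 adipocyte markers had the same split: all 25 were higher within H7H2WDSXX (median 1.48), and 11 were higher and 14 lower on H7GKJDSXX (median -0.31). Summed CPM of these markers on H7H2WDSXX was 1617 in vehicle 2 and 21199 in vehicle 3. It was 16272 in quercetin 1, below vehicle 3, and 42223 in quercetin 3. The part of vehicle 2 in the differences within H7H2WDSXX was not tested.

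**Figure D3:**
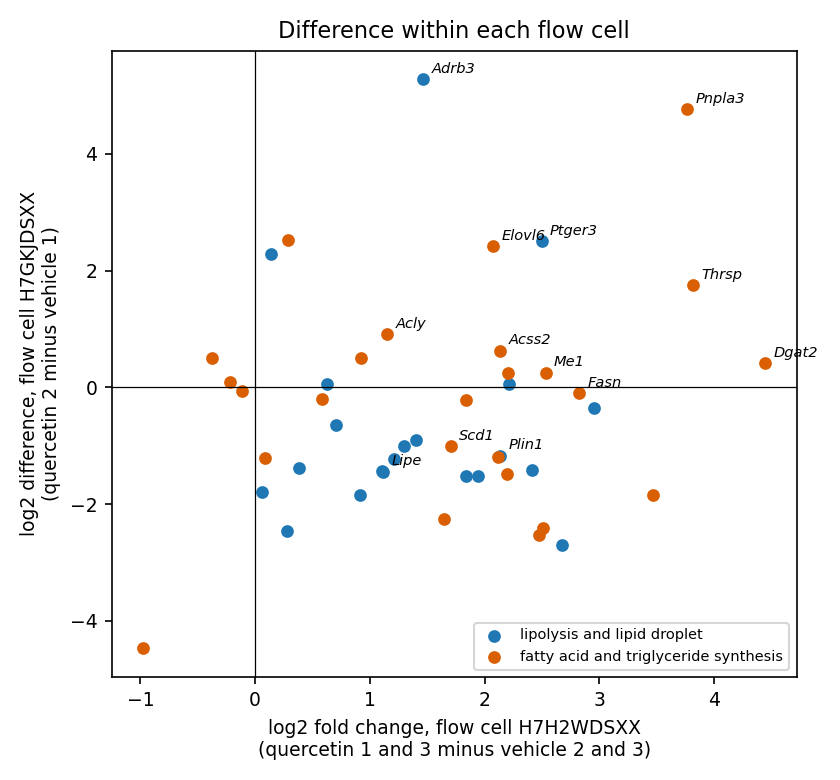
Log2 difference of quercetin from vehicle within flow cell H7H2WDSXX (x axis, quercetin 1 and 3 against vehicle 2 and 3) and H7GKJDSXX (y axis, quercetin 2 against vehicle 1), for genes of fat synthesis (orange) and of lipolysis and the lipid droplet (blue). Pnpla3 (3.76 and 4.77), Thrsp (3.81 and 1.75) and Ptger3 (2.5 and 2.51) lie above 0 on both axes, while most lipolysis genes lie above 0 on the x axis and below it on the y axis.

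The amount of adipocyte RNA also differed between the libraries, and its part in these results was not tested. When each gene was set against the mean log2 level of 5 adipocyte genes in the same library, a scale added after the data were seen, the libraries of both groups overlapped for each of the 29 genes computed. On that scale the difference of group means was 2.96 for Pnpla3, 1.94 for Thrsp, 1.35 for Angptl8 and 1.21 for Ptger3. It was 0.46 for Acss2, 0.36 for Slc25a35, -0.09 for Acly and -0.02 for Sc5d. The mean log2 level of the 5 reference genes was itself 12.4, 5.79 and 9.63 in vehicle 1 to 3 and 9.21, 11.3 and 10.7 in quercetin 1 to 3. All quercetin values of the reference lay inside its vehicle range. Overlap on this scale was therefore largely set by the reference and cannot tell whether a single gene differed. Vehicle 1, with the most adipocyte RNA, had Thrsp at 69.5 CPM and Pnpla3 at 4.84 CPM, both below every quercetin library. Acaca and Scd1 were instead highest in vehicle 1. Of the 25 genes of fat synthesis, 12 were higher and 13 lower in quercetin 2 than in vehicle 1.

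Regulators of lipogenesis showed no such separation. Srebf1, which encodes SREBP-1, was at 421, 93.1 and 182 CPM with vehicle and at 154, 688 and 302 CPM with quercetin (log2 fold change 0.72 ± 0.76). Mlxipl, which encodes ChREBP, was at 131, 2.32 and 30.7 CPM against 17.1, 120.1 and 39.9 CPM (0.11 ± 1.31). Insig1, a sterol-regulated inhibitor of SREBP processing, was at 163, 30.3 and 28.3 CPM against 56.6, 101 and 344 CPM (1.18 ± 0.97). The libraries of the groups overlapped in all 3 cases. Of 12 regulators, 6 had a higher estimate, none passed an unadjusted p of 0.05, and the median log2 fold change was -0.01, or 0.32 without vehicle 1.

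Of 22 tested genes of sterol synthesis and uptake, 17 had a higher estimate (48.5% of all genes tested did). The median of the 22 was 0.34 on the log2 scale. Of the 22, 4 had non-overlapping groups, all higher (2.36% of all genes tested), and none passed edgeR's adjusted p. The median stayed between 0.21 and 0.39 when 1 library was left out. Sc5d, a late enzyme of cholesterol synthesis, was at 30.4, 24.9 and 24.4 CPM with vehicle and at 40.0, 75.2 and 67.5 CPM with quercetin (1.20 ± 0.32, edgeR unadjusted p = 0.00882). Nsdhl, of the same branch, was at 16.2, 8.23 and 10.9 CPM against 18.6, 17.9 and 32.7 CPM (0.97 ± 0.42, edgeR unadjusted p = 0.0605). Each of these had its lowest quercetin library above its highest vehicle library, while Msmo1 overlapped (0.66 ± 0.39).

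Most genes of lipolysis and of the lipid droplet had overlapping groups: of 21 tested only Ptger3, described above, did not, a share close to the 4.6% of all genes tested. Of the 21, 7 had a higher and 14 a lower estimate (51.5% of all genes tested were lower; median log2 fold change -0.37), and the median was 2.0 without vehicle 1 and -0.82 without vehicle 3. Lipe, hormone-sensitive lipase, was at 3347, 49.5 and 348 CPM with vehicle and at 266, 1231 and 602 CPM with quercetin (-0.84 ± 1.41). Plin1, the droplet coat protein, was at 2966, 14.8 and 251 CPM against 239, 1316 and 941 CPM (-0.37 ± 1.60). Both were highest in vehicle 1 and lowest in vehicle 2. Adrb3, the beta-3 adrenergic receptor of adipocytes, went the other way, at 11.4, 11.4 and 95.6 CPM with vehicle and 89.5, 459 and 209 CPM with quercetin (2.68 ± 1.09, edgeR unadjusted p = 0.0484), and quercetin 1 overlapped vehicle 3.

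Fatty acid uptake through lipoprotein lipase gave a median of -0.29 over 15 genes, of which 5 had a higher estimate, Angptl8 among them. Without vehicle 1 all 15 were higher (median 1.24), and the median was also above 0 within H7H2WDSXX (0.95), with flow cell as a covariate (0.29) and in limma voom (0.41). Lpl itself ranged from 200.3 to 6376 CPM with vehicle and from 1339 to 3712 CPM with quercetin (-0.07 ± 1.17). Insulin signalling and glucose uptake gave a median of -0.17 over 19 genes, of which 7 had a higher estimate, and it was 0.84 (13 of 19 higher) without vehicle 1, 0.32 without quercetin 1 and -0.53 without quercetin 2. Irs2, an insulin receptor substrate, was at 411, 49.8 and 68.1 CPM against 44.1, 49.3 and 41.6 CPM (-1.97 ± 0.85, edgeR unadjusted p = 0.0578). Its groups did not overlap, but the difference was -0.40 without vehicle 1. Slc2a4, the insulin-responsive glucose transporter, overlapped, with 11.6 to 201 CPM against 60.1 to 213 CPM.

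Of 13 adipokine genes, 9 had a higher estimate and the median log2 fold change was 0.60, which was -0.30 without quercetin 2. Leptin (Lep) was at 334, 1.48 and 174 CPM with vehicle and at 50.4, 785 and 180.2 CPM with quercetin (0.99 ± 1.63). Adipoq was at 1385, 22.6 and 586 CPM against 419, 1494 and 1098 CPM (0.60 ± 1.24), and the resistin gene Retn at 509, 29.7 and 299 CPM against 332, 653 and 754 CPM (1.05 ± 0.94). Vehicle 2 was lowest for all 3. Rbp4, the retinol carrier, was the 1 adipokine gene of 13 whose groups did not overlap (4.6% of all genes tested), at 8.23 to 115 CPM with vehicle and 129 to 264 CPM with quercetin (1.41 ± 0.90, edgeR unadjusted p = 0.166).

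Thermogenic genes were mixed. Cox8b, a cytochrome oxidase subunit of brown fat and muscle, was at 2.72, 34.0 and 18.2 CPM with vehicle and at 66.5, 68.5 and 141 CPM with quercetin (2.33 ± 0.87, edgeR unadjusted p = 0.0356). Otop1, also known from brown adipocytes, was at 0.101 to 2.22 CPM against 3.47 to 13.7 CPM (2.88 ± 1.12, edgeR unadjusted p = 0.0413). Ucp1, the uncoupling protein that defines brown adipocytes, was near the floor in 4 libraries and highest in a vehicle library, at 0.606, 22.8 and 0.303 CPM against 1.02, 0.0 and 9.01 CPM. Over 17 thermogenic genes the median was 0.05, with 9 higher, and it ranged from -0.14 to 0.74 when 1 library was left out. Nuclear genes of the respiratory chain had small positive estimates, 36 of 44 higher with a median of 0.19, and 10 of the 44 were higher in quercetin 2 than in vehicle 1. None of the 44 passed an unadjusted p of 0.05.

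**Figure D4:**
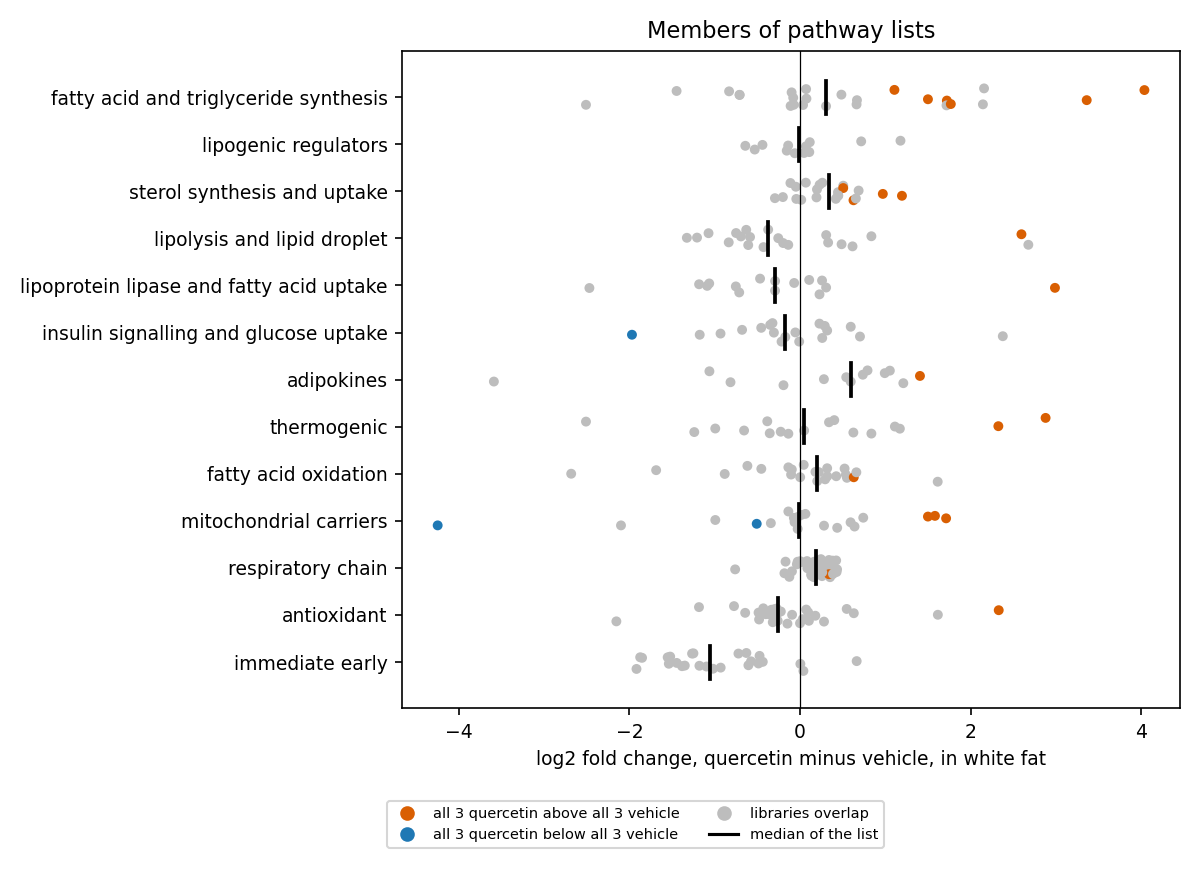
Log2 fold change of quercetin against vehicle in white fat for the tested members of 13 pathway lists; each point is 1 gene, orange where all 3 quercetin libraries lie above all 3 vehicle libraries, blue where they lie below, grey where they overlap, and black bars are medians. Fat synthesis (median 0.31) holds the largest positive values, up to 4.04, and immediate early genes have the lowest median (-1.06).

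Several lists differed mainly through vehicle 1. The 26 immediate early genes tested, which respond within minutes to stress or handling, had a median of -1.06 with 3 higher. Their summed CPM was 8648 in vehicle 1 and 1285 to 3438 in the other 5 libraries, and the median became 0.18 without vehicle 1. Zfp36 among them was at 1386, 134 and 195 CPM against 242, 115 and 96.7 CPM (-1.92 ± 1.0). All 20 endothelial markers had a lower estimate (median -0.84), but 19 of the 20 were higher without vehicle 1 (median 0.57). Interferon-stimulated genes were low in vehicle 1 instead, with a summed CPM of 622 against 1519 to 2158 in the others, and their median of 0.30 (22 of 28 higher) became -0.17 without it. The senescence marker Cdkn1a, which encodes p21, was at 1096, 60.7 and 129 CPM with vehicle and at 99.4, 109 and 163 CPM with quercetin, so its estimate of -1.79 ± 1.08 rested on vehicle 1 and was 0.38 without that library.

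The next 4 lists differed mainly through quercetin 2 or vehicle 2. Fibroblast markers (17 of 18 higher, median 0.60) had a summed CPM of 24389.7 in quercetin 2 against 1483 to 14215 elsewhere, and their median was -0.50 without it. Collagen and matrix genes (17 of 24 higher, median 0.58) had a median of -0.75 without quercetin 2. Of 22 skeletal muscle markers, 15 passed the filter, and all 15 were lower with quercetin (median -2.58). Of the 15, 5 had an edgeR unadjusted p under 0.05 (0.328% of all genes tested were lower at that level). The median of the muscle markers was -0.84 without vehicle 2. Proliferation genes (all 22 lower, median -1.19) had a median of 0.16 without vehicle 2. The median of plasma cell markers, by contrast, did not rest on 1 library. All 8 tested were lower (median -0.75), and the median was -0.59 without vehicle 2 and -1.46 without quercetin 2. None of the 8 passed an unadjusted p of 0.05 in edgeR or had groups without overlap. On H7GKJDSXX, 5 of the 8 were higher in quercetin 2 than in vehicle 1 (median 0.31). The summed CPM of the plasma cell markers was 932, 17576 and 13308 in vehicle 1 to 3 and 5391, 1204 and 3761 in quercetin 1 to 3. It was lowest in the pair on H7GKJDSXX, with Igkc at 58.6, 11309 and 8963 CPM against 2686, 145 and 2039.7 CPM.

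No gene was called lower with quercetin by edgeR or DESeq2. The 5 lower genes with the smallest p were all weakly expressed. Gm13123 was at 3.9 to 7.42 CPM with vehicle and at 0.862 to 1.33 CPM with quercetin (-2.35 ± 0.50, edgeR unadjusted p = 0.00318). Cacng1, a calcium channel subunit of skeletal muscle, was at 1.11 to 1.79 CPM against 0.287 to 0.307 CPM (-2.30 ± 0.53, edgeR unadjusted p = 0.00455). Tg, the thyroglobulin gene, was at 1.51 to 3.48 CPM against 0.511 to 0.671 CPM (-2.17 ± 0.56), and Gm2004 at 1.41 to 3.18 CPM against 0.0 to 0.307 CPM. Eef1a2, an elongation factor of muscle and neurons, was at 1.51, 16.2 and 2.83 CPM against 0.102, 0.397 and 0.0 CPM, highest in vehicle 2, the library with the most muscle RNA, whose part in this was not tested. Genes with higher levels and larger p were also lower. Txndc11, a thioredoxin-domain protein of the endoplasmic reticulum, was at 109, 107 and 74.9 CPM with vehicle and at 54.7, 53.8 and 54.3 CPM with quercetin (-0.84 ± 0.25, edgeR unadjusted p = 0.0156). Serinc5, a membrane protein, was at 48.9, 58.5 and 40.1 CPM against 27.8, 16.3 and 24.2 CPM (-1.11 ± 0.31, edgeR unadjusted p = 0.0118), and the chromatin protein gene Hmgn2 at 184, 141 and 112 CPM against 94.4, 55.2 and 55.8 CPM (-1.09 ± 0.35, edgeR unadjusted p = 0.0203). Gpnmb, a gene of lipid-laden macrophages, was at 173, 90.0 and 304 CPM against 48.6, 69.5 and 24.4 CPM (-1.99 ± 0.59, edgeR unadjusted p = 0.0146). The groups did not overlap for these 4 genes, and leaving out 1 library kept each difference below 0. The macrophage marker Adgre1 was at 12.1 to 47.6 CPM against 7.56 to 93.0 CPM and did overlap. Casq1 and Tnnt3, which encode the calsequestrin and a troponin of fast muscle, were also among the lower genes (-3.37 ± 0.96 and -6.17 ± 2.07), with Tnnt3 at 356 CPM in vehicle 2 and at most 19.7 CPM in any other library.

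More genes were called between the flow cells than between the treatments. In a fit with treatment and flow cell, edgeR called 168 genes (1.13%) higher and 906 (6.07%) lower on H7GKJDSXX. All 14 T cell markers and 11 of 12 B cell markers were called lower there. Cd8a was at 0.606 and 1.09 CPM in vehicle 1 and quercetin 2 and at 88.3 to 198 CPM in the other 4 libraries, and the B cell gene Ms4a1 at 0.0 and 0.595 CPM against 94.7 to 457 CPM. Only 2 libraries stand on that side, so flow cell and library cannot be told apart. With flow cell as a covariate, 0 genes were called for quercetin against vehicle, and 354 had an unadjusted p under 0.05.

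The same genes, chosen with the white fat results known, were set beside the other tissues, in which each group also had 3 libraries. Thrsp differed by 1.26 ± 1.13 (log2) in brown fat and 1.33 ± 0.95 in muscle, against 3.36 ± 0.63 in white fat. Pnpla3 differed by 1.25 ± 1.25 and 0.35 ± 0.78, Acly by 1.10 ± 1.15 and 0.48 ± 0.63, and Acss2 by 1.07 ± 0.91 and -0.09 ± 0.26, in the same order of brown fat and muscle. Estimates were thus positive in brown fat for each of these 4 genes, but the groups overlapped there for each of them. On the scale of the fit of 18 libraries, Thrsp in brown fat ranged from 61.2 to 2272 CPM with vehicle and from 1397 to 6956 CPM with quercetin. Acly ranged from 114 to 2563 CPM and from 595 to 7187 CPM in the same order. Sc5d in brown fat was higher by 1.12 ± 0.43 (edgeR unadjusted p = 0.033). The difference between the white fat and brown fat effects, tested as an interaction over all 18 libraries, was 2.10 for Thrsp and 2.78 for Pnpla3 (edgeR adjusted p = 1.0 for both), and that between white fat and muscle was 2.01 and 3.66 (edgeR adjusted p = 1.0 for both). No gene of 16388 passed in either interaction (0.0%), with 173 (1.06%) and 231 (1.41%) at an unadjusted p under 0.05 against brown fat and muscle. DESeq2 called 11 of 2173 genes with an adjusted p against brown fat and 7 of 31525 against muscle, all lower. The muscle genes Xirp2 and Myf6 (named after their values were seen) were called in both. Their DESeq2 log2 differences were -21.6 to -25.3, against -7.28 to -10.9 in edgeR (edgeR unadjusted p 0.0102 to 0.074). None of the fat synthesis list was called, but most genes had no DESeq2 adjusted p against brown fat. A difference particular to white fat was therefore not shown.

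**Figure D5:**
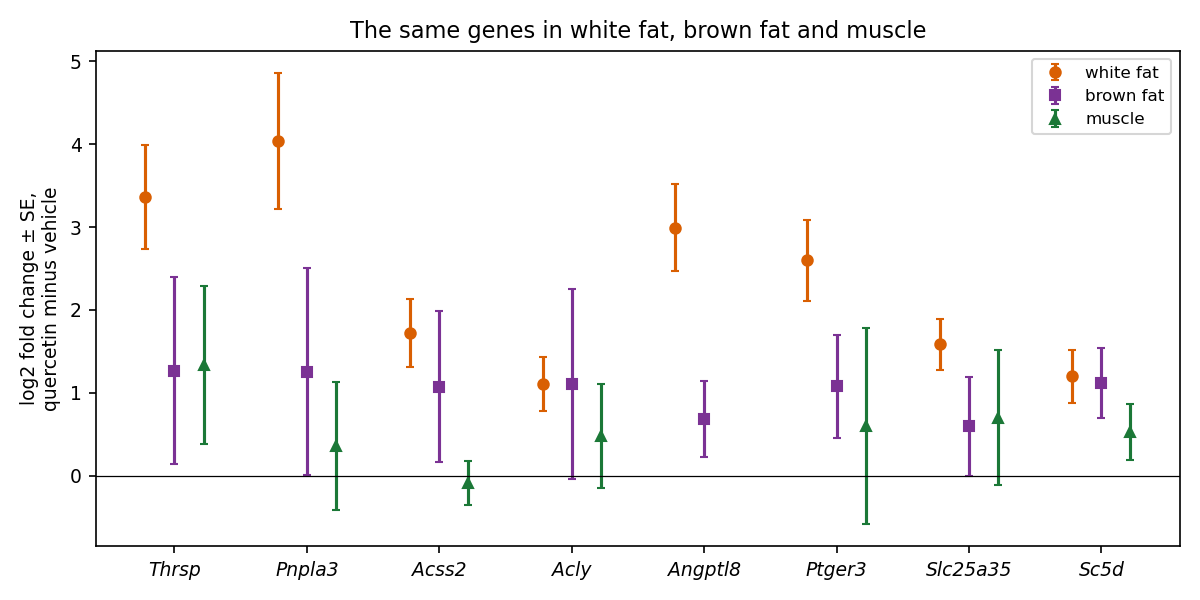
Log2 fold change of quercetin against vehicle with its standard error for 8 genes in white fat (circles), brown fat (squares) and muscle (triangles), n = 3 libraries per group; Angptl8 was not tested in muscle. White fat has the largest estimate for each gene shown, but those of Acly (1.11 and 1.10) and Sc5d (1.20 and 1.12) are nearly equal in brown fat. The 8 genes were chosen with the white fat results known, so a larger estimate there may follow from the choice.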

How the data were processed

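Total RNA was sequenced from 6 white fat libraries. The authors deposited raw counts per Ensembl gene, 1 table per library, without normalisation. The tools named, per the submitters' processing notes, are HISAT2, HTSeq and DESeq2, and the build is mm10; versions, annotation and strand setting: not given in the sources used here. The 5 summary lines of each table were left out; reads without a feature came to 5.43 to 9.11% and ambiguous reads to 6.47 to 7.61%. Symbols and coordinates came from GENCODE (GRCm38) and matched 53360 of 53465 identifiers.

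Genes were kept by filterByExpr (minimum count 10, minimum total 15), scaled by TMM and passed to the two-sided quasi-likelihood test of edgeR 4.0.16 in R 4.3.3. Benjamini-Hochberg adjustment covered every gene tested, with a threshold of 0.05. DESeq2 1.42.0 and limma 3.58.1 (voom) were alternatives, beside other scalings, no filter, a replicate block, flow cell as a covariate or as a stratum, and leaving out each library. The fits were tested on simulated data. Differences between single libraries used log2(CPM + 0.5). CPM printed for white fat come from the fit of its 6 libraries.

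The members and gene lists were chosen with earlier results of these data known. Genes named were the 15 higher and 15 lower with the smallest p, a panel of 30 genes, up to 4 members of each list and the most abundant markers. No 2 libraries of a group were copies (lowest chi-square per degree of freedom 74.6). Numbers were not treated as pairs because no label states a pairing. The r of deviations of same-numbered libraries was -0.66, -0.73 and 0.31. It was 0.71 for vehicle 1 with quercetin 2, which share a flow cell, so these values cannot decide whether animals were paired.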

Additional observations from a re-analysis of the deposited data

How the results depend on the processing

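Quercetin against vehicle gave 0 called genes in edgeR under each scaling, without the filter, in limma voom with and without library weights, with flow cell as a covariate, within flow cell H7H2WDSXX, in the fit of 18 libraries and without each library in turn, and 6 with DESeq2. At an unadjusted p under 0.05 the count was 122 in the main setting, 47 to 477 with 1 library left out and 1765 with library weights. The replicate block, which the labels do not support as a pairing, gave 0 called genes and 38 at an unadjusted p under 0.05, against 122; under it the estimates of Scd1 (1.13), Lipe (0.70), Plin1 (1.81) and Ucp1 (0.37) changed sign. The flow cell difference (1074 genes) was 2612 without the filter and 4215 with DESeq2, and 45 to 1603 with 1 library left out, with 45 without vehicle 1, 155 without quercetin 1, and 519, 523 and 524 without vehicle 2, vehicle 3 and quercetin 3. The interactions (0 called) gave 7 of 31525 genes against muscle and 11 of 2173 against brown fat with DESeq2.

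Of 46 genes followed through these alternatives, 36 kept their direction under each, Thrsp, Pnpla3, Acss2, Acly, Angptl8, Ptger3, Slc25a35 and Sc5d among them. The other 10 did not, and the cause was not tested. Lpl, Rbp4, Otop1, Zfp36, Gsta4 and Gm13123 were not followed. The single pair on H7GKJDSXX was not among the alternatives. Fasn, counted among the 36, was not higher in quercetin 2 than in vehicle 1. With 1 library left out the estimates ranged from -0.18 to 2.03 for Acaca, -0.62 to 2.01 for Scd1, -0.028 to 1.48 for Srebf1, -0.94 to 1.85 for Mlxipl, -1.53 to 1.83 for Lipe, -0.95 to 2.66 for Plin1, -0.56 to 1.97 for Lep, -3.92 to 2.88 for Ucp1, -0.71 to 1.55 for Adgre1 and -2.30 to 0.38 for Cdkn1a. Upper quartile factors gave 0.0052 for Scd1. Limma voom gave 0.78 for Scd1, 0.49 for Lipe and 1.46 for Plin1; with library weights it gave 1.66, 1.03 and 2.18, with 2.88 for Ucp1, -0.77 for Adgre1 and 0.26 for Cdkn1a. Flow cell as a covariate gave 0.88 for Scd1, 0.32 for Lipe and 1.15 for Plin1. Within H7H2WDSXX the values were 1.71 for Scd1, 1.11 for Lipe, 2.14 for Plin1, -1.06 for Adgre1 and 0.45 for Cdkn1a.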

Other observations

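Antigen presentation genes marked vehicle 1 as well. The 7 MHC class II genes summed to 167 CPM there and to 10893 and 7662 CPM in vehicle 2 and 3, while quercetin 1 to 3 stood at 11579, 1562 and 3709 CPM. H2-Ab1 had 45.0 CPM in vehicle 1 against 461 to 2916 CPM elsewhere. Neutrophil markers were highest in quercetin 2, with a summed CPM of 894 against 45.8 to 149 in the others, and S100a9 was at 298 CPM there against 6.64 to 36.3 CPM. Gsta4, a glutathione transferase, was the 1 antioxidant gene of 29 whose groups did not overlap, a share below the 4.6% of all genes tested, at 4.54, 0.738 and 7.07 CPM with vehicle and at 14.5, 19.7 and 28.0 CPM with quercetin (log2 fold change 2.33 ± 0.81, edgeR unadjusted p = 0.0267, not past the adjusted threshold).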
